A study of Mus musculus with 6 samples.

Results

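The 31 genes described here encode the enzymes of glycolysis from glucose phosphate isomerase to pyruvate kinase, lactate dehydrogenase and the lactate transporters, the bifunctional enzymes that regulate phosphofructokinase, the pentose phosphate pathway, and the synthesis of serine with its entry into folate one-carbon metabolism. They were chosen by name. A gene was represented by the open regions of the count matrix that lay within 1 kb of either end of its span (mm10, RefSeq genes), and its main region was the one with the highest mean count. Of the 31 genes, 26 had such a region, 28 of the 24605 regions in all, and each of the 26 main regions entered the test. They were set against the 8740 gene-end main regions tested over all genes. No region lay within 1 kb of an end of Pfkl, Aldoa, Ldha, Slc16a3 or Pfkfb4.

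CD8+ T cells were from wild-type mice, and the labels name pancreas, spleen and lymph nodes as their source. Cells were kept for 48 h in medium with 100 µM palmitate, a saturated fatty acid (3 libraries), or as control (3 libraries), and 50000 cells sorted by flow cytometry entered each library. The series asked how palmitate affects the function of these cells. The assay was ATAC-seq, in which a transposase cuts accessible DNA, so that the count in a region measures how open its chromatin is. The labels give neither the vehicle of the controls nor the age, sex or number of mice. Whether the numbered replicates are separate animals or cultures is not stated, and the p-values therefore cover only the spread from library to library, which may be technical. In such bulk samples a change in the share of cells with an open region and a change within each cell cannot be told apart.

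Glycolysis turns glucose into pyruvate and yields ATP in its later, payoff steps. An activated T cell raises its glycolytic flux and passes much of the pyruvate on to lactate, which leaves the cell through monocarboxylate transporters. The pentose phosphate pathway branches off at glucose 6-phosphate and supplies NADPH and ribose. Serine is made from a glycolytic intermediate and gives its side-chain carbon to folate, which feeds the synthesis of purines and thymidylate that dividing T cells need.

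The libraries held 2219136 to 3089230 counts in regions. Values are given as CPM, counts scaled to the library size adjusted by the trimmed mean of M-values (TMM), mean ± SD over 3 libraries per group. Fold changes and adjusted p-values come from the edgeR quasi-likelihood test with Benjamini-Hochberg adjustment over all 24316 tested regions, palmitate over control, with a threshold of 0.05. Of these regions, 2894 were higher in palmitate (11.9%) and 3078 lower (12.7%), and main regions of gene ends made up 2309 of the higher ones. Therefore a second scaling was run with trended offsets, which remove from each library its trend of counts on region strength; it called 507 regions higher and 1061 lower. Scaling to total counts shifted the median over all regions by -0.12 on the log2 scale and called 1282 higher and 4331 lower, and the DESeq2 Wald test called 1888 higher and 1236 lower. Control 2 stood apart from the other controls, with a chi-square divided by its degrees of freedom of 2.04 to control 1 and 2.03 to control 3, where controls 1 and 3 had 1.197 between them. Palmitate 2 stood apart to a smaller degree, with 1.486 to palmitate 1 and 1.395 to palmitate 3, where palmitate 1 and 3 had 1.191. All 8 of the CD8 T cell markers examined had a gene-end region, with a summed level of 323 to 384 CPM in palmitate and 331 to 380 CPM in control. No region lay at the ends of the B cell markers (0 of 5), the NK cell markers (0 of 2), Cd4 or Foxp3. Weak regions lay at 2 of 6 myeloid genes (20.05 to 24.5 CPM summed in palmitate, 12.6 to 20.4 CPM in control), where Itgam was higher in palmitate (log2 fold change 0.91, edgeR adjusted p = 0.0151). The Itgam region lies 515 bp past the far end of the gene, 56366 bp from its listed start, and had a peak in 3 of the 6 lists. Zbtb7b, a factor of the CD4 lineage, was also higher, at 46.5 to 73.4 CPM in palmitate and 34.9 to 51.4 CPM in control (0.48, edgeR adjusted p = 0.0121). Of 8 pancreas genes, 2 had a region (46.1 to 58.7 CPM summed in palmitate, 48.2 to 56.2 CPM in control), and 1 of 5 stroma and 1 of 2 erythroid genes did, with 0 of these passing. Their part in the results below was not tested.

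Before the values, the promoter sequences of 6 members are shown, one for each role, that with the smallest p under trended offsets in its group. Each is the 250 bases before the listed transcription start, from RefSeq (GRCm38.p6), written 5′ to 3′ on the strand of the gene, and each overlaps the main region of its gene. Capitals mark matches, on either strand, to CACGTG (the E-box, known to bind MYC with MAX), ACGTG (the core of the hypoxia response element, which the E-box contains), GGGCGG (the GC box), CCAAT (the NF-Y box) or TGATGNAA (the core of the amino acid response element, known to bind ATF4). They lie at chr4:150236947-150237196 (plus strand), chr3:104638414-104638663 (plus strand), chr2:11553930-11554179 (minus strand), chr14:30548881-30549130 (plus strand), chr3:98339970-98340219 (minus strand) and chr10:127522445-127522694 (minus strand).
Eno1: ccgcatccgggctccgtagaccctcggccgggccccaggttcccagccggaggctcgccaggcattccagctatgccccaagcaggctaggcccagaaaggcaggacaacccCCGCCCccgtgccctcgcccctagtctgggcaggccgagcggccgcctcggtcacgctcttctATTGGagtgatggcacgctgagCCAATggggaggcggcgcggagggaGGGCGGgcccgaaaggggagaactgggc
Slc16a1: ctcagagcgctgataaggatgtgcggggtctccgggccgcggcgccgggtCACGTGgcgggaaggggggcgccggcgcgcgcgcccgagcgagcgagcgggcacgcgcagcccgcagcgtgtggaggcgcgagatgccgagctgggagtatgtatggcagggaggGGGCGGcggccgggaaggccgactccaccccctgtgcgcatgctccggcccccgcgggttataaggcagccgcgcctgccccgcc
Pfkfb3: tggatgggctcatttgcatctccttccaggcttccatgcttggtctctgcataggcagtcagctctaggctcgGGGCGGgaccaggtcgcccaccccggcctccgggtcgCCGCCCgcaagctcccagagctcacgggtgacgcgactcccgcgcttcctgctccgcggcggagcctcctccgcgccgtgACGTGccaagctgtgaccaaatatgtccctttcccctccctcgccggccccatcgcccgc
Tkt: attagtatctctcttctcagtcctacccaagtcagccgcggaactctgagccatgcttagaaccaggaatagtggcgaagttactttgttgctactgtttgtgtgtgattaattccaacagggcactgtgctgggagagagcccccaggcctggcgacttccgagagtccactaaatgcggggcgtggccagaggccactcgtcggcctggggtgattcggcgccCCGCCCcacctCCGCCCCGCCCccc
Phgdh: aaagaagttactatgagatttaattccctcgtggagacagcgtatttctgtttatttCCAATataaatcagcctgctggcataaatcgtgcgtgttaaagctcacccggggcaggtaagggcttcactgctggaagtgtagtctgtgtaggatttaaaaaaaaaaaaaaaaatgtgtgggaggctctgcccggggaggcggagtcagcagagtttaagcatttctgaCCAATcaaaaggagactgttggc
Shmt2: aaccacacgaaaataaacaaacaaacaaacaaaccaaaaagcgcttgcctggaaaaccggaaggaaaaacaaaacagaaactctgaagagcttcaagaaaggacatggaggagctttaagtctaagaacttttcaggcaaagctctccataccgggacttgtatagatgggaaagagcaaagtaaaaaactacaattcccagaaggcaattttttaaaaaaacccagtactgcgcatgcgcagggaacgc
The promoter of Slc16a1 carries 1 E-box in a window of 76.4% GC, that of Eno1 has 2 GC boxes and 2 NF-Y boxes, and that of Phgdh has 2 NF-Y boxes in a window of 44.0% GC. None of the searched letters occurs in the Shmt2 window, at 40.8% GC, which says nothing of the factors themselves. Over the 35 listed windows of 29 members that overlap a tested region, 3 held an E-box (8.57%), 10 a hypoxia response core (28.6%), 25 a GC box (71.4%), 17 an NF-Y box (48.6%) and 0 the amino acid response core. The shares over all 9209 such windows were 9.33%, 23.9%, 65.5%, 37.6% and 1.57% in the same order of motifs. The median GC content was 60% in the members' windows and 61.6% in all. Windows of one gene can overlap, and a match is a run of letters, not a bound site.

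With TMM scaling, gene ends of the pathway that passed were all more open in palmitate, and they were among the stronger regions. By edgeR, 8 of the 26 main regions were higher in palmitate (30.8%) and 0 lower, and 18 did not pass. Over all gene-end main regions 26.4% were higher and 1.92% lower. At an unadjusted edgeR p under 0.05, 11 members were higher and 0 lower. The DESeq2 Wald test called 2 members higher and 0 lower. Shares over all gene ends are not given for these last 2 checks. The 8 higher members by edgeR were Pfkm, Gapdh, Pgam1, Pkm, Slc16a1, Pgls, Psph and Shmt1. In 9 members all palmitate libraries lay above all controls and in 0 below, against 37.2% and 5.8% of all gene-end main regions. The median log2 fold change was 0.15 for the members and 0.15 for all gene ends.

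Set beside gene ends of like strength, about as many members were higher in total, with fewer in the strongest group and a lower median. When all gene-end main regions were cut into 5 groups of mean CPM, 0 of 5 members in the 2 weakest groups were higher, where 1.72% and 4.18% of all regions were, and 1 of 7 in the middle group, where 13.0% were. In the fourth group 4 of 8 members were higher, beside 38.4% of all regions, and in the strongest group 3 of 6, beside 74.8%. From the weakest group to the strongest, the median log2 fold change of the members was 0.33 (1 member), -0.19, 0.07, 0.23 and 0.18. Over all regions of these groups it was -0.09, 0.05, 0.13, 0.20 and 0.28. With each member given the median of its group, the median was 0.20, beside 0.15 for the members themselves. Applied to the 26 members, the shares of the 5 groups add up to 8.65 regions higher, and 8 were found. Of these 8, Pfkm had a log2 fold change of 0.34, beside a group median of 0.13. Slc16a1, Pgls, Pgam1 and Gapdh had 0.34, 0.28, 0.27 and 0.24, beside 0.20. Shmt1, Pkm and Psph had 0.32, 0.30 and 0.20, beside 0.28. Regions that pass are picked for large changes, so these gaps are no test. With trended offsets 0 members passed in either direction, beside 2.44% of all gene-end main regions higher and 1.41% lower. At an unadjusted p under 0.05 there were 5 members (19.2%), beside 18.0% of all gene-end main regions. The median log2 fold change then was -0.01 for the members and 0.05 for all gene ends, and 13 of the 26 members had a positive value (50%, beside 60.9% of all gene ends), where 20 had one with TMM scaling (76.9%, beside 73.7%). These trended comparisons are with gene ends of all strengths. By group, weakest first, the trended median over all regions was 0.150, 0.085, 0.048, 0.029 and 0.005. For the members it was 0.53 (1 member), -0.12, 0.02, 0.05 and -0.08.

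**Figure D1:**
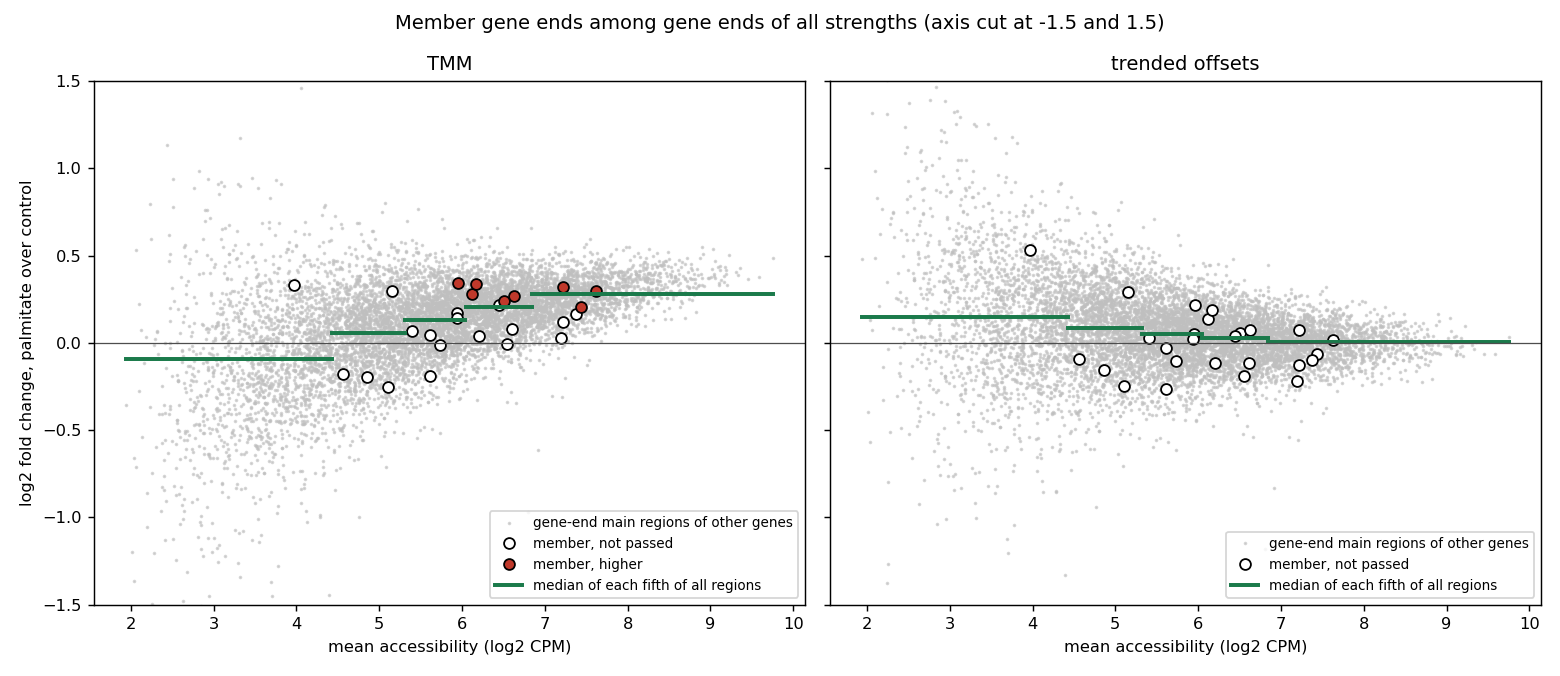
Log2 fold change, palmitate over control, against mean accessibility (log2 CPM) for the main gene-end region of every gene (grey) and of the 26 members (circles; filled where the edgeR adjusted p was under 0.05), with TMM scaling on the left and trended offsets on the right; green bars are the medians of 5 groups of strength over all regions. The 8 filled members lie in the 3 stronger groups on the left, and no member is filled on the right.

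Summed over the 26 regions, the level was 2201, 2297 and 2346 CPM in palmitate and 2100, 2003 and 2037 CPM in control, so that the groups did not overlap. The sum over all 8740 gene-end main regions was also higher in every palmitate library. It made up 69.8%, 71.7% and 71.1% of the TMM-adjusted library size in palmitate and 61.4%, 59.9% and 62.0% in control. The TMM factors were 0.9533 to 0.9708 in palmitate and 1.032 to 1.054 in control, so shares of the raw counts lie closer together. Each of the 26 overlapped a peak in all 6 of the authors' peak lists. With an overlap of at least 50% of the region this held for 24, Ldhb and Tpi1 being the exceptions. With only peaks that scored above the median of all lists it held for 23, without Gpi1, Shmt2 and Tpi1. Shares over all gene ends are not given for these peak counts, so they do not set the members apart.

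**Figure D2:**
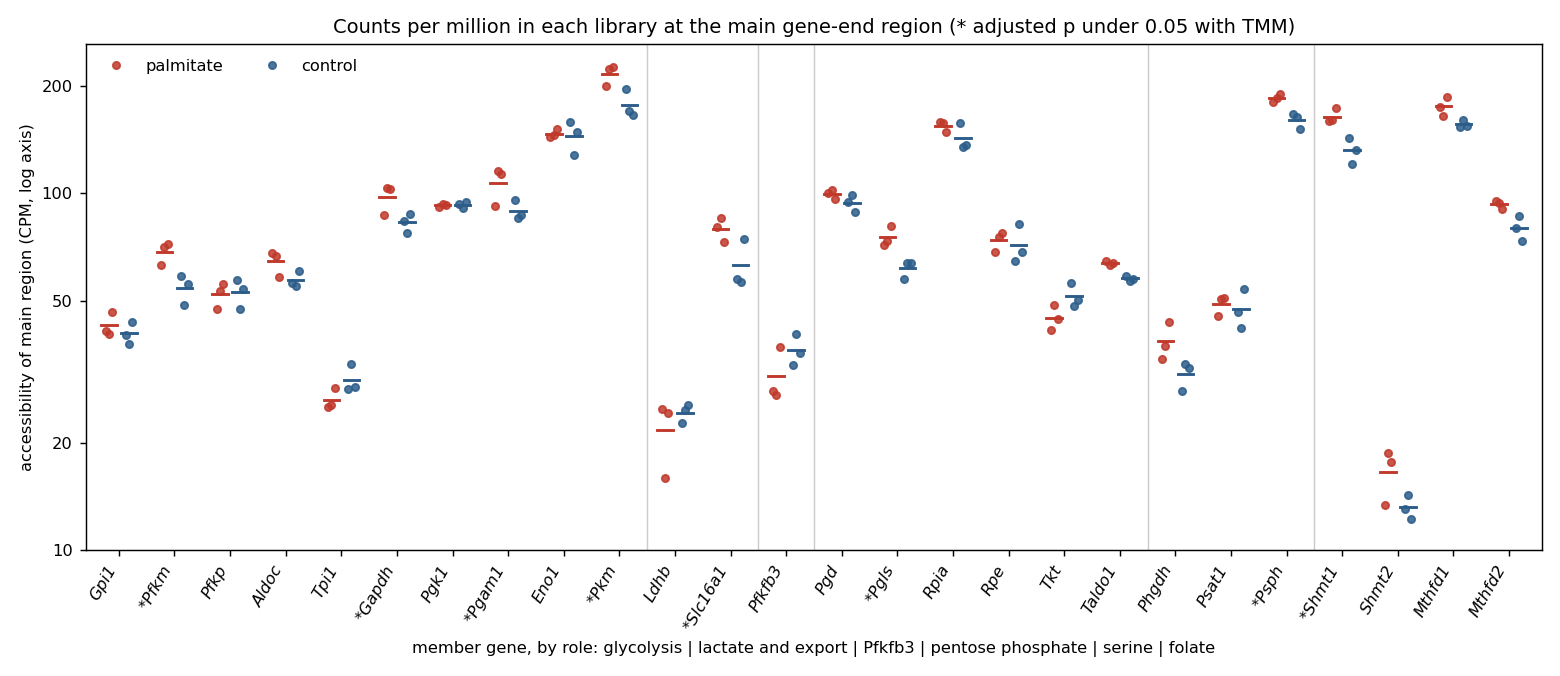
Accessibility of the main gene-end region of each member in CPM (log axis) by role; points are single libraries, with palmitate left of control, bars are group means, and an asterisk marks an edgeR adjusted p under 0.05 with TMM scaling. The 8 marked genes have mean levels of 68.6 CPM (Pfkm) to 216 CPM (Pkm) in palmitate.

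Among the enzymes of the preparatory steps of glycolysis, which spend ATP to make triose phosphates, only the end region of Pfkm passed. Pfkm encodes the muscle isoform of phosphofructokinase, the main control point of the pathway, and its region (chr15:98092911-98093640) had 63.1, 70.7 and 72.1 CPM in palmitate, against 58.8, 48.6 and 55.8 CPM in control. All palmitate libraries lay above all controls. The means were 68.6 ± 4.85 and 54.4 ± 5.26 CPM (SD, n = 3 each), which gives a log2 fold change of 0.34 (SE 0.11) at an edgeR adjusted p of 0.0185. With trended offsets the log2 fold change was 0.22 (edgeR adjusted p = 0.222, highest of 12 alternatives, the lowest being 0.0119). The region is shared with the end of Senp1, begins 322 bp inside the span of Pfkm, past a listed start, and holds none of its listed starts, and the weak region over a Pfkm start had a log2 fold change of -0.22 (edgeR adjusted p = 0.513). The call was lost without palmitate 2 (edgeR adjusted p = 0.069), palmitate 3 (0.0885) or control 2 (0.0833).

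The other isoforms and enzymes of these steps did not pass. Pfkp, the platelet isoform of phosphofructokinase, had 47.3, 53.3 and 55.6 CPM in palmitate, against 57.1, 47.2 and 54.1 CPM in control, with overlapping groups and a log2 fold change of -0.01 ± 0.12 (SE). Gpi1, which turns glucose 6-phosphate into fructose 6-phosphate, averaged 42.6 ± 3.29 CPM in palmitate and 40.5 ± 2.82 CPM in control (SD, n = 3 each). Aldoc, an aldolase, and Tpi1, which interconverts the triose phosphates, had log2 fold changes of 0.17 ± 0.11 and -0.19 ± 0.16 (SE). The Aldoc region lies at the gene's far end, shared with Pigs, and the Tpi1 region is shared with Usp5.

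In the payoff steps, the ends of Pkm, Pgam1 and Gapdh were more open in palmitate, and those of Pgk1 and Eno1 did not pass. Pkm encodes the pyruvate kinase of most tissues outside the liver, which makes pyruvate and ATP. Its region (chr9:59656013-59656665) had 200, 223 and 227 CPM in palmitate, against 196, 170 and 166 CPM in control, without overlap. The means were 216 ± 14.5 and 177 ± 16.3 CPM (SD, n = 3 each), and the log2 fold change was 0.30 ± 0.073 (SE; edgeR adjusted p = 0.003). The call held in 11 of 12 alternatives. The exception was the trended scaling, where the log2 fold change was 0.02 ± 0.066 (SE; edgeR adjusted p = 0.915, against 0.00132 at the lowest).

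Pgam1, a phosphoglycerate mutase, had 92.2, 116 and 114 CPM in palmitate, against 95.9, 85.5 and 87.0 CPM in control, at chr19:41911574-41912253. Palmitate 1 lay below control 1, so the groups overlapped; the means were 107 ± 12.9 and 89.5 ± 5.59 CPM (SD, n = 3 each) and the log2 fold change 0.27 ± 0.091 (SE; edgeR adjusted p = 0.0293). Gapdh, the dehydrogenase that makes the NADH of glycolysis, had 87.1, 103 and 103 CPM in palmitate, against 83.7, 77.5 and 87.7 CPM in control, at chr6:125165398-125165873. Here too palmitate 1 lay below one control, and the log2 fold change of 0.24 ± 0.091 (SE) sat at the threshold (edgeR adjusted p = 0.0498). Trended log2 fold changes were 0.07 for Pgam1 and 0.06 for Gapdh (edgeR adjusted p = 0.677 and 0.758, the highest of their 12 alternatives, against lowest values of 0.00758 and 0.0218). Leaving out palmitate 2, palmitate 3 or control 2 ended both calls (edgeR adjusted p = 0.165, 0.141 and 0.0644 for Pgam1, and 0.191, 0.186 and 0.146 for Gapdh), as did leaving out control 3 for Pgam1 (0.0787) and control 1 for Gapdh (0.0714). Genes such as Gapdh, Eno1, Pgk1 and Ldha have many processed pseudogene copies, and the handling of reads that map to several places is not given in the sources used here.

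Pgk1, the kinase of the first ATP-yielding step, was the member with the log2 fold change closest to 0. Its region (chrX:106186775-106187247) had 91.8, 93.4 and 92.8 CPM in palmitate, against 93.2, 90.8 and 94.9 CPM in control, a log2 fold change of -0.0038 ± 0.084 (SE). Eno1, the enolase whose promoter is printed above, had 144, 146 and 151 CPM in palmitate, against 158, 128 and 149 CPM in control, at chr4:150236720-150237414. Palmitate values sat inside the span of the controls, and the log2 fold change was 0.03 ± 0.078 (SE; edgeR adjusted p = 0.843). With trended offsets Eno1 had -0.22 ± 0.071 (SE; edgeR adjusted p = 0.0591, the lowest of its 12 alternatives, whose highest was 0.976), the smallest trended p of the 26 members, and Pgk1 had -0.19 ± 0.081 (SE; edgeR adjusted p = 0.158). The median TMM log2 fold change of gene ends of like strength was 0.28 for the group of Eno1 and 0.20 for that of Pgk1. Neither gene passed under either scaling, and the adjusted p of Pgk1 reached 0.999 over its 12 alternatives.

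**Figure D3:**
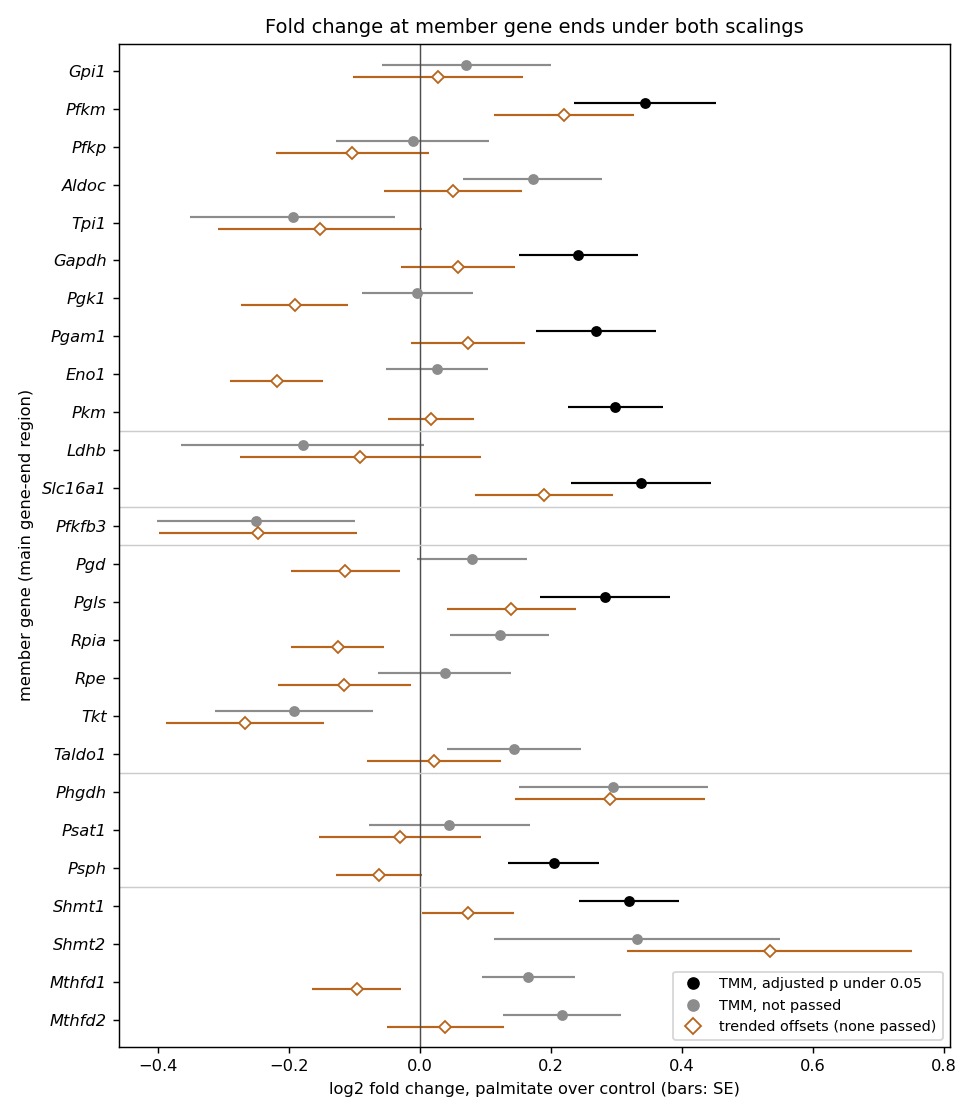
Log2 fold change, palmitate over control, with its SE at the main gene-end region of each member, in order of role; circles are the TMM scaling (black where the edgeR adjusted p was under 0.05) and diamonds the trended offsets. All 8 black circles lie right of 0, between 0.20 (Psph) and 0.34 (Pfkm), and no diamond passed.

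Of the genes that handle lactate, the lactate transporter Slc16a1 had a more open end in palmitate. Slc16a1 encodes the monocarboxylate transporter MCT1, and its region (chr3:104638364-104638949) had 80.4, 85.3 and 73.2 CPM in palmitate, against 57.5, 56.6 and 74.5 CPM in control. Control 3 lay above palmitate 3, so the groups overlapped by a single library on each side. The means were 79.6 ± 6.06 and 62.8 ± 10.1 CPM (SD, n = 3 each), with a log2 fold change of 0.34 with an SE of 0.11 (edgeR adjusted p = 0.0195). With trended offsets the value was 0.19 (edgeR adjusted p = 0.299, the highest of 12 alternatives, the lowest being 0.00364), and the call was also lost without palmitate 1 (0.0547), palmitate 2 (0.103), control 1 (0.0667) or control 2 (0.0866). Ldhb, the lactate dehydrogenase subunit that prevails in heart, was weak, at 24.8, 16.0 and 24.2 CPM in palmitate against 22.7, 24.6 and 25.5 CPM in control, and did not pass (log2 fold change -0.18 ± 0.19, SE).

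Pfkfb3, an enzyme that makes the fructose bisphosphate activating phosphofructokinase, had the lowest log2 fold change of the 26 members. Its end region (chr2:11553655-11554142) had 28, 27.2 and 37.2 CPM in palmitate, against 33.1, 40.3 and 35.7 CPM in control. The groups overlapped, and the value of -0.25 ± 0.15 (SE) did not pass (edgeR adjusted p = 0.235). A stronger region lies over its other listed start, inside the gene, with 47.7 ± 3.15 CPM in palmitate and 49.2 ± 3.19 CPM in control (SD, n = 3 each) and a log2 fold change of -0.04.

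All 6 genes of the pentose phosphate pathway had an end region, and Pgls alone passed. Pgls encodes the lactonase of the oxidative branch, which yields NADPH. Its region (chr8:71591814-71592555) had 71.7, 73.7 and 80.9 CPM in palmitate, against 57.5, 63.9 and 63.9 CPM in control, without overlap. The log2 fold change was 0.28 ± 0.099 (SE; edgeR adjusted p = 0.0353), and 0.14 with trended offsets (edgeR adjusted p = 0.432, the highest of 12 alternatives, the lowest being 0.0207). The call was lost without palmitate 2 (0.0633), palmitate 3 (0.163) or control 1 (0.0985). Pgd, the next dehydrogenase of this branch, had 99.4 ± 2.9 CPM in palmitate and 94.2 ± 5.22 CPM in control (SD, n = 3 each).

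The non-oxidative branch, which interconverts sugar phosphates and yields ribose 5-phosphate, showed no call. Tkt, the transketolase whose promoter with 3 GC boxes is printed above, had 41.4, 48.6 and 44.5 CPM in palmitate, against 56.2, 48.2 and 50.3 CPM in control, at chr14:30548933-30549581. Palmitate 2 lay just above control 2; the log2 fold change was -0.19 ± 0.12 (SE; edgeR adjusted p = 0.253), and -0.27 with trended offsets (edgeR adjusted p = 0.186, within 0.0604 to 0.606 over 12 alternatives). Taldo1, the transaldolase, varied little within groups, with 64.6, 62.9 and 63.7 CPM in palmitate against 58.8, 56.9 and 57.5 CPM in control. Its groups did not overlap, yet the log2 fold change of 0.14 ± 0.10 (SE) did not pass (edgeR adjusted p = 0.326); the test pools the spread over regions of like strength. The isomerase Rpia and the epimerase Rpe had log2 fold changes of 0.12 and 0.04.

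In serine synthesis, Psph passed and Phgdh and Psat1 did not. Psph, the phosphatase of the last step, had 180, 185 and 190 CPM in palmitate, against 167, 164 and 152 CPM in control, at chr5:129786911-129787599. All palmitate libraries lay above all controls, with means of 185 ± 5.23 and 161 ± 8.1 CPM (SD, n = 3 each) and a log2 fold change of 0.20 with an SE of 0.07 (edgeR adjusted p = 0.0298). The region is shared with Cct6a, a chaperonin subunit gene. With trended offsets the log2 fold change turned to -0.06 (edgeR adjusted p = 0.626, the highest of 12 alternatives, the lowest being 0.0193), and the call was lost without palmitate 2 (0.0785), palmitate 3 (0.122) or control 3 (0.118).

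Phgdh, the dehydrogenase that draws 3-phosphoglycerate out of glycolysis, had a short, weak region (chr3:98339828-98340106) with 34.3, 37.4 and 43.7 CPM in palmitate, against 27.9, 33.3 and 32.3 CPM in control. The groups did not overlap. The log2 fold change of 0.30 ± 0.14 (SE) was as large as that of Pkm but came with a wider error (edgeR adjusted p = 0.135), and it was 0.29 with trended offsets (0.235; edgeR adjusted p between 0.0914 and 0.439 over 12 alternatives). Psat1, the aminotransferase between these steps, had overlapping groups and a log2 fold change of 0.04 ± 0.12 (SE).

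Of the 4 genes of folate one-carbon metabolism, Shmt1 passed and the others did not. Shmt1 and Shmt2 encode the cytosolic and the mitochondrial serine hydroxymethyltransferase, which pass the carbon of serine to folate. The Shmt1 region (chr11:60811109-60811512) had 159, 160 and 173 CPM in palmitate, against 142, 121 and 132 CPM in control, without overlap. The means were 164 ± 7.69 and 132 ± 10.7 CPM (SD, n = 3 each) and the log2 fold change was 0.32 ± 0.076 (SE; edgeR adjusted p = 0.00241, the smallest of the members). The call held in 11 of 12 alternatives, the trended scaling being the exception, with 0.07 (edgeR adjusted p = 0.585, against 0.00202 at the lowest).

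Shmt2 was the weakest of the 26 regions and had the highest trended value. Its region (chr10:127521960-127522522) had 13.4, 18.7 and 17.6 CPM in palmitate, against 13.1, 14.3 and 12.2 CPM in control, where palmitate 1 lay below control 2. The log2 fold change was 0.33 ± 0.22 with TMM scaling and 0.53 ± 0.22 with trended offsets (SE), and neither passed (edgeR adjusted p = 0.281 and 0.139, with 0.576 at the highest over 12 alternatives). The median of all gene ends in its group, the weakest, also rose, from -0.09 with TMM scaling to 0.15 with trended offsets. Mthfd1, the cytosolic enzyme that interconverts folate one-carbon forms, had 175, 165 and 186 CPM in palmitate, against 153, 161 and 154 CPM in control (log2 fold change 0.17 ± 0.071, SE; edgeR adjusted p = 0.0864), and its value turned to -0.10 under trended offsets. Mthfd2, its mitochondrial counterpart, had 95.4, 93.8 and 90.1 CPM in palmitate, against 80.2, 86.5 and 73.4 CPM in control (0.22 ± 0.09, SE; edgeR adjusted p = 0.0749). In both genes the groups did not overlap. Without control 2 the Mthfd2 region passed (edgeR adjusted p = 0.0286), as it did with DESeq2 size factors (0.0436), and over 12 alternatives its adjusted p reached 0.849. The Mthfd2 main region is shared with Mob1a, and the region over its listed start had a log2 fold change of 0.18 (edgeR adjusted p = 0.168).

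Measured per length, the members spanned a 13.9-fold range of accessibility. Mthfd1 and Shmt1 led with 410 ± 24.8 and 407 ± 19.1 CPM per kb in palmitate, against 365 ± 9.93 and 327 ± 26.5 CPM per kb in control (SD, n = 3 each). Pkm followed with 332 CPM per kb in palmitate and 271 in control. At the low end stood Ldhb, Tpi1 and Shmt2, with 38.8, 33.7 and 29.5 CPM per kb in palmitate and 43.5, 38.4 and 23.5 in control. Of the 25 neighbouring pairs in this order, the palmitate libraries of 6 did not overlap and those of 19 did, so that much of the order in the middle is within the spread. These levels describe the open region at the gene end, not the transcript.

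The distance of 1 kb left out the promoters of some members, since the span of a gene can begin well before a listed start. The farthest main region from its gene's end was that of Mthfd1, at 0.651 kb, and the nearest region inside a member that was left out was that of Aldoa, at 1.32 kb. Representing each gene by the strongest region over one of its listed starts instead, a choice made after seeing the data, gave 29 of the 31 genes a region, of which 9 were higher (31.03%) and 0 lower, beside 28% higher and 1.26% lower over the same regions of all genes. With trended offsets 0 of the 29 passed. For 22 genes this was the main region. Pfkl and Slc16a3 had none, the nearest region to the Pfkl start lying 59.5 kb away.

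Of the genes gained in this way, Aldoa had the strongest region, and it was higher in palmitate. Aldoa encodes the aldolase of muscle and most tissues. The region over its start (chr7:126798969-126799671) had 242, 242 and 247 CPM in palmitate, against 210, 181 and 190 CPM in control, without overlap, with a log2 fold change of 0.34 with an SE of 0.067 (edgeR adjusted p = 0.000474). Pfkfb4, a relative of Pfkfb3, had 186, 210 and 173 CPM in palmitate, against 164, 147 and 156 CPM in control, over its start at chr9:108991504-108991981 (log2 fold change 0.29 ± 0.075, SE; edgeR adjusted p = 0.00523). Under trended offsets the values were 0.04 and 0.02 (edgeR adjusted p = 0.739 and 0.884, the highest of 12 alternatives, with lowest values of 0.000399 and 0.00417). The Pfkfb4 call was also lost without palmitate 2 (edgeR adjusted p = 0.0805).

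Ldha, the lactate dehydrogenase subunit that favours lactate, had a separate region over each of its listed starts, and they leaned opposite ways. The region chr7:46845577-46846376 had 35.5, 43.2 and 38.0 CPM in palmitate, against 52.7, 43.9 and 43.5 CPM in control, with all palmitate libraries below all controls (log2 fold change -0.25 ± 0.13, SE; edgeR adjusted p = 0.163). The region chr7:46846833-46847352 had 28.8, 30.6 and 31.8 CPM in palmitate, against 28.3, 23.3 and 22.1 CPM in control, with all palmitate libraries above all controls (0.32 ± 0.16, SE; edgeR adjusted p = 0.149). Neither passed.

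Regions inside the genes but away from any listed start mostly had negative log2 fold changes with TMM scaling, at about the share of all genes, and with trended offsets they were evenly split. Of 23 regions that lay inside 13 members and over 1 kb from both ends, 2 were higher and 2 lower, beside 4.3% higher and 19.6% lower of all inside-gene regions. The 2 higher ones are those over the starts of Aldoa and Pfkfb4. The median log2 fold change of the 23 was -0.14 with TMM scaling and 0.02 with trended offsets, beside -0.24 and -0.04 for all inside-gene regions. Of the 16 regions away from a listed start, a split made after seeing the data, 2 were lower, beside 21.6% of such regions in all genes. With TMM scaling 12 of the 16 were negative (75.0%, median -0.17), beside 74.0% of such regions in all genes (median -0.28). With trended offsets 8 of the 16 were negative (50%, median 0.01), beside 56.8% (median -0.06).

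A region inside Pfkp was the only one of the members to pass with trended offsets, where 6.31% of all inside-gene regions were lower. It lies 15.02 kb inside the gene (chr13:6633529-6634040) and had 48.1, 44.5 and 52.9 CPM in palmitate, against 63.6, 58.6 and 57.8 CPM in control. All palmitate libraries lay below all controls, with means of 48.5 ± 4.22 and 59.99 ± 3.16 CPM (SD, n = 3 each). The log2 fold change was -0.31 ± 0.11 with TMM scaling and -0.40 ± 0.11 with trended offsets (SE; edgeR adjusted p = 0.0457 and 0.0279), while the Pfkp end region did not pass under either. The TMM call was lost without palmitate 1 (0.0984), palmitate 2 (0.191), control 1 (0.185) or control 3 (0.101), and its adjusted p over 12 alternatives ran from 0.00748 to 0.249.

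The region nearest to the start of Slc16a3, which encodes the lactate exporter MCT4, was also lower. It lies 1814 bp from the listed start, inside the gene (chr11:120950881-120951167), and had 18.9, 19.0 and 23.0 CPM in palmitate, against 36.2, 23.6 and 26.5 CPM in control, without overlap. The log2 fold change of -0.48 ± 0.18 (SE) passed narrowly (edgeR adjusted p = 0.04997), held in 2 of 12 alternatives and was -0.41 with trended offsets (edgeR adjusted p = 0.182). It was lost without each palmitate library in turn (0.138, 0.15 and 0.062 for palmitate 1, 2 and 3), without control 1 (0.336) and without control 3 (0.0861).

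**Figure D4:**
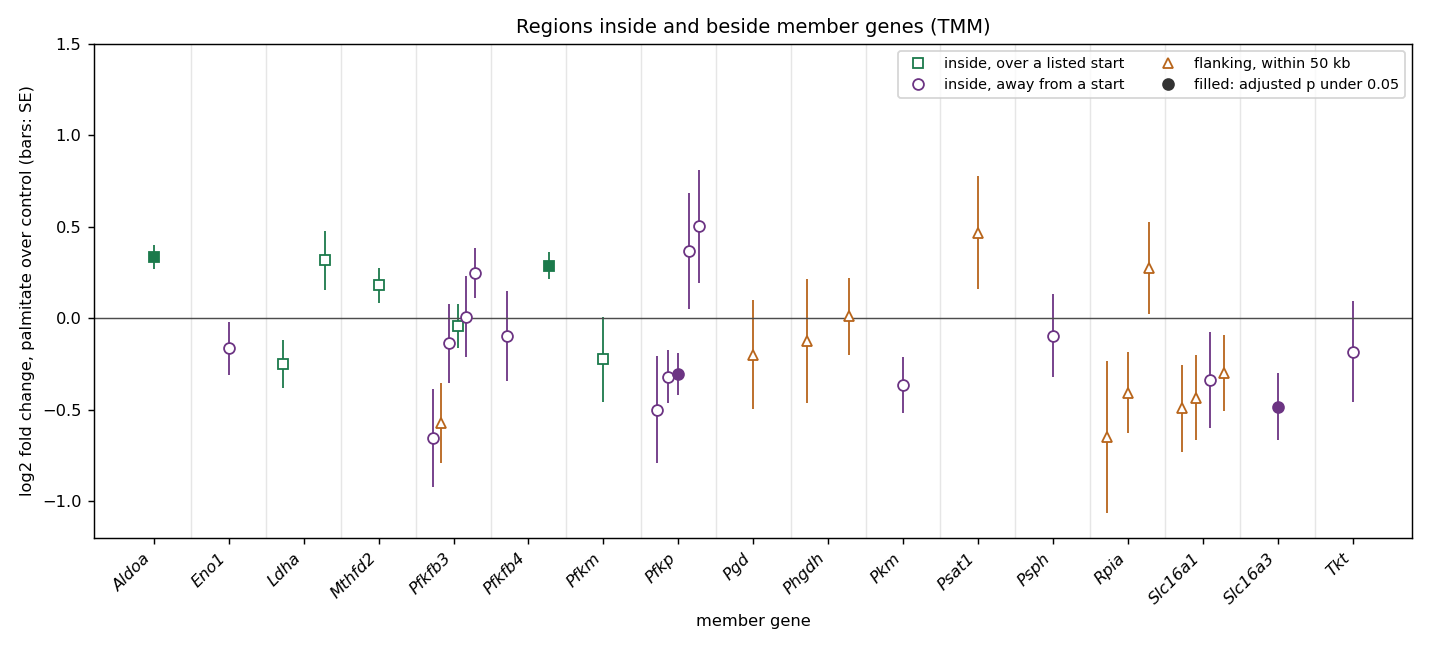
Log2 fold change with its SE, palmitate over control (TMM), of each region inside a member gene and over 1 kb from its ends (squares over a listed start, circles elsewhere) and of each flanking region within 50 kb (triangles); filled symbols had an edgeR adjusted p under 0.05. Filled squares are Aldoa (0.34) and Pfkfb4 (0.29), filled circles are Pfkp (-0.31) and Slc16a3 (-0.48), and no triangle is filled.

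Flanking regions outside genes, within 50 kb and nearest to a member, numbered 11 at 6 members. With edgeR and with the DESeq2 Wald test 0 of them passed, beside 18.4% of all intergenic regions called lower by edgeR. With TMM scaling 2 had an unadjusted edgeR p under 0.05. With trended offsets 9.09% of them had one, beside 23.7% of all intergenic regions. With TMM scaling 8 of the 11 log2 fold changes were negative (72.7%, median -0.30), beside 72.0% of all intergenic regions (median -0.25). With trended offsets 6 were negative, with a median of -0.12, beside -0.03 for all intergenic regions. All were weak, at 4.79 to 19.1 CPM on average in palmitate. The smallest p was that of a region 41.4 kb from Pfkfb3, with 9.46, 13.9 and 13.0 CPM in palmitate, against 17, 19.3 and 18.0 CPM in control (-0.57 ± 0.22, SE; edgeR adjusted p = 0.0531). Further regions at the ends of Pkm and Aldoc, 1 each, did not pass.

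Among 46 further genes of glucose, serine and folate metabolism, 30 had an end region. By edgeR 6 of these were higher (20%, beside 26.4% of all gene-end main regions), 0 lower and 24 not past the threshold. At an unadjusted edgeR p under 0.05, 11 were higher and 1 lower. The DESeq2 Wald test called 4 higher and 0 lower. For the unadjusted and the Wald counts the shares over all gene ends are not given, so these counts cannot be set beside other genes. The median log2 fold change of the 30 was 0.13. The 6 higher ones by edgeR were Gart, Mpc2, Slc25a32, Rbks, Eno2 and Hk2. Gart, a trifunctional enzyme of purine synthesis that uses folate-bound carbon, had 142, 154 and 141 CPM in palmitate, against 109, 98.8 and 107 CPM in control, at chr16:91647592-91648103. The log2 fold change of 0.48 with an SE of 0.078 (edgeR adjusted p = 5.07e-05) passed in 12 of 12 alternatives, and was 0.25 with trended offsets (edgeR adjusted p = 0.0336, the highest of them, against 4.2e-05 at the lowest). The region is shared with Son and lies 620 bp from a listed start of Gart.

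Mpc2, a subunit of the mitochondrial pyruvate carrier, shares its region with Dcaf6 and had 400, 403 and 401 CPM in palmitate, against 341, 333 and 309 CPM in control (log2 fold change 0.29 ± 0.058, SE; edgeR adjusted p = 0.000434). Slc25a32, the mitochondrial folate transporter, shares its region with Dcaf13 and had 200, 194 and 194 CPM in palmitate, against 156, 149 and 174 CPM in control (0.29 ± 0.071, SE; edgeR adjusted p = 0.00284). In both genes all palmitate libraries lay above all controls. Under trended offsets the values were -0.06 for Mpc2 and 0.02 for Slc25a32 (edgeR adjusted p = 0.537 and 0.872, the highest of 12 alternatives, with lowest values of 5.89e-05 and 0.00225).

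With trended offsets 2 of these 30 regions were higher, Gart and Eno2, and 2 lower, Mthfd1l and H6pd. Over all gene-end main regions 2.44% were higher and 1.41% lower with this scaling. Mthfd1l, the mitochondrial synthetase that releases formate from folate, had 141, 129 and 151 CPM in palmitate, against 170, 151 and 163 CPM in control, where palmitate 3 at its highest stayed just under control 2. Its log2 fold change was -0.20 ± 0.076 with TMM scaling (SE; edgeR adjusted p = 0.0532) and -0.45 ± 0.071 with trended offsets (SE; edgeR adjusted p = 0.000201, with 0.298 at the highest over 12 alternatives), and the TMM value passed without palmitate 3 (0.0465) or control 2 (0.0163). Eno2, the neuronal enolase, whose region is shared with Lrrc23, had 0.49 and 0.52 under the 2 scalings (edgeR adjusted p = 0.0228 and 0.0423). Its TMM call was lost without palmitate 1 (0.115, the highest of 12 alternatives) or control 1 (0.0639), that of Rbks without palmitate 2 (0.0903), and that of Hk2 without palmitate 1 (0.139), palmitate 2 (0.149), control 1 (0.0798) or control 2 (0.14). H6pd, a hexose phosphate dehydrogenase of the endoplasmic reticulum, had -0.21 and -0.35 (edgeR adjusted p = 0.161 and 0.0476, and up to 0.618).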

How the data were processed

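Per the submitters' processing notes, the tools were edgeR 3.40.2, MACS2 2.2.8, Picard 2.23.8, Bowtie2 2.5.1 and Trim Galore 0.6.10, on mm10; how reads were shifted to Tn5 cuts and counted, and how regions were merged, is not given in the sources used here. Raw counts of 6 libraries fill the deposited matrix of 24605 regions, all of whose columns were used. The deposited peak lists hold a score per peak, the authors' own, used to describe peaks. All 24316 regions left by filterByExpr were fitted with the edgeR 4.0.16 quasi-likelihood test (limma 3.58.1, R 4.3.3), two-sided, TMM, group only; the SE is the size of the log2 fold change over the root of F. The test was checked on simulated counts that had no trend of fold change on region strength, so the check does not cover such a trend. Trended offsets were a loess fit (span 0.3, pseudocount 0.5) of log count on mean abundance. Alternatives were DESeq2 size factors, total counts, trended offsets, no count filter, the DESeq2 1.42.0 Wald test, a replicate block, each library left out, 2.5 kb in place of 1 kb, and start-based regions. Genes and starts came from RefSeq, GRCm38.p6. Values were given for members that passed or had the largest change in their role, for the inside and flanking regions that passed, and for the 3 other pathway genes with the smallest p; further regions were picked after their values were seen. Some genes of the further pathway list are not reported here. Members and lists were chosen with earlier results of these data known.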

Additional observations from a re-analysis of the deposited data

How the results depend on the processing

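The trended scaling ended every one of the 8 calls at member gene ends (0 higher), and total counts and the DESeq2 Wald test each left 2, Pkm and Shmt1, with 1 library left out giving 2 to 7. Calls at inside regions numbered 1 higher and 6 lower with total counts, 0 and 1 with trended offsets, and 0 higher away from a listed start. The lower count was 0 with DESeq2 size factors and with the Wald test, and 1 without the count filter. Leaving out a library gave 1 to 2 higher and 0 to 3 lower. Within 2.5 kb of gene ends, 1 member region was lower. Total counts called 1 flanking region lower (0 to 1 with a library left out), and 2 other pathway genes higher and 2 lower; trended offsets called 2 and 2, and leaving out a library gave 0 to 1 lower. Over all regions, total counts called 1282 higher, trended offsets 507 higher and 1061 lower, the Wald test 1888 higher and 1236 lower, and 1870 to 3312 were lower with a library left out, against 3078 with all, the fewest without control 3 (1870) and palmitate 3 (1910). Deviations from the group means had little correlation between libraries of the same number (0.00045, -0.10 and -0.03). Counting noise can hide a shared animal or culture in such values, so pairing stays unknown. With a replicate block 2712 regions were higher and 2821 lower. Then 7 members were higher (Gapdh at an edgeR adjusted p of 0.0582) and 0 inside regions were lower. Some log2 fold changes turned sign, among them those of Psph and Mpc2, which had passed with TMM scaling. With total counts they were -0.089 for Eno1, -0.044 for Gpi1, -0.036 for Pgd, -0.070 for Psat1 and -0.078 for Rpe. With trended offsets they were -0.22 for Eno1, -0.097 for Mthfd1, -0.11 for Pgd, -0.031 for Psat1, -0.062 for Psph, -0.12 for Rpe, -0.13 for Rpia and -0.061 for Mpc2. Pfkp had 0.020 with DESeq2 size factors and 0.016 with the Wald test, Pgk1 had 0.028 and 0.027 in the same order, and without the count filter Pgk1 had 0.00023. With a library left out, Eno1 ran from -0.058 to 0.11, Ldhb from -0.29 to 0.0089, Pfkp from -0.088 to 0.065, Pgk1 from -0.022 to 0.036, Psat1 from -0.048 to 0.18 and Rpe from -0.00033 to 0.15. The cause was not tested. Counts at members ran from 30 to 656 per library and region, which limits the weak ones such as Shmt2.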

Other observations

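The log2 ratio between the regions over the first and the second listed start of Ldha, in genome order, was 0.30, 0.50 and 0.25 in palmitate libraries 1 to 3 and 0.90, 0.92 and 0.98 in controls 1 to 3. The means were 0.35 ± 0.13 and 0.93 ± 0.04 (SD, n = 3 each), and the difference of -0.58 does not depend on the library sizes used for scaling, since both regions share them. The ratio was chosen after both regions had been seen to separate the groups in opposite directions, so it is given as a description, with no test.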
